A study of Homo sapiens with 12 samples.

Results

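Knockdown of IGF2BP2 was compared with control siRNA in ES-2, a human cell line established from an ovarian tumour. The comparison uses 6 of the 12 libraries of the study, picked by title and siRNA label. They are 3 libraries of cells given siRNA against IGF2BP2 (siI2) and 3 of cells given control siRNA (siC). The remaining libraries, 3 each for siRNA against IGF2BP1 (siI1) and IGF2BP3 (siI3), served as a second reference, whose fold changes need no control library. Total RNA was depleted of ribosomal RNA, primed with random hexamers and sequenced as paired reads. The siRNAs carry no names or sequences in the labels, and no source used here gives the time after transfection. One protocol field speaks of parental cells for every library, and the group was taken from the siRNA label. Whether the replicates were grown as separate cultures is not stated, and each p-value therefore reflects only how far these libraries spread, which may be technical. In bulk RNA of this kind a change in all cells and a larger change in some of them cannot be told apart.

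IGF2BP2, also called IMP2, belongs with IGF2BP1 and IGF2BP3 to a family of RNA-binding proteins that use RNA recognition motifs and KH domains to hold mRNAs, and the family is known for influencing the stability, transport and translation of the RNAs it binds. Its members are abundant in the embryo, and many tumours, ovarian cancers among them, express them again. IGF2BP2 is known in particular for binding mRNAs of the IGF, HMGA and mitochondrial respiration pathways, for recognising m6A-modified RNA, and for being encoded by an mRNA that the let-7 miRNAs can target.

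Because the let-7 family and its targets recur in the account of this protein family, the mature let-7a sequence and the site that pairs with its seed in the 3′ UTR of each paralog and of HMGA2 are shown first. The capitals mark the seed (bases 2 to 8 of the miRNA) and, in the mRNAs, the 7 bases complementary to it. The miRNA sequence is from RefSeq (GRCh38.p14, plus strand, chr9:94175962-94175983) and the sites are from principal transcripts of GENCODE release 29 (GRCh38).
hsa-let-7a-5p: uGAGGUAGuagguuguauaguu
IGF2BP2 let-7: aaacacacagaagaagCTACCTCaggtgtt
IGF2BP1 let-7: ctgtgtgcgaagtaaaCTACCTCaaggtat
IGF2BP3 let-7: gtgcatttttactcaaCTACCTCaggtatt
HMGA2 let-7: cgccaacgttcgatttCTACCTCagcagca
IGF2BP2 holds 1 such site, at base 1304 of a 3′ UTR of 1792 bases, and IGF2BP3 holds 1 at base 560 of 2153. IGF2BP1 holds 4 in 6206 bases and HMGA2 holds 4 in 3003 bases, of which the site printed is the one at base 1632 for IGF2BP1 and at base 21 for HMGA2.

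The siI2 libraries held 3274590 to 5419907 reads on genes and the siC libraries 6338205 to 11110357, so low genes were measured with less precision in siI2. Levels are given in FPM, the authors' unit, in which 3 reads were worth 0.55 to 0.73 FPM in siI2 and 0.32 to 0.41 FPM in siC. FPM summed over genes to 794020 in siI2 replicate 3 and to 1198170 in siC replicate 2, so they were not scaled to the gene total alone. RN7SL, the RNA of the signal recognition particle, took 25.6% ± 2.51 of reads in siI2 and 13.8% ± 2.24 in siC (SD, n = 3 each), with no overlap. An exact two-sided permutation test gave p = 0.1, the smallest that 3 libraries against 3 allow. Of the genes that mark the lineage, the line expressed the keratin genes KRT7, KRT8 and KRT18, the mesenchymal genes VIM and CDH2, and fibronectin, while the ovarian factor PAX8 was at 8 to 13 reads in siI2 and at 1 to 6 reads in siC. Of the 10 measured markers of blood and endothelial cells, PTPRC, CD3E, LYZ, HBB, HBA1 and HBA2 had at most 3 reads in any siI2 or siC library. The summed level of the 10 was 109 to 128 FPM in siI2 and 55.4 to 72.8 FPM in siC, and nearly all of it came from CDH5, VE-cadherin, at 114 ± 10.2 FPM in siI2 and 60.5 ± 9.77 FPM in siC (limma adjusted p = 0.0154). The part of this in the results below was not tested.

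Gene levels followed the GC content of the transcript to a different degree in each library, and this touches every result that follows. The slope of a gene's deviation from its mean over all libraries came to 0.20, -0.09 and 0.12 (log2 for every 10 points of GC) in siI2 replicates 1, 2 and 3. In siC replicates 1, 2 and 3 it was -0.46, 0.02 and -0.43. Replicate 2 of siC therefore lay within the range of the siI2 libraries, and the other two controls lay below all of them. When genes were put in 5 equal groups by GC content, the median log2 fold change of siI2 over siC was -0.56 in the group of lowest GC (30.2% to 41.5%) and 0.26 in the group of highest GC (58.0% to 83.9%). With siC replicate 2 as the only control these medians were -0.14 and -0.06. A second fit, in which a smooth surface over GC content and transcript length was subtracted from each library, gave -0.03 in both groups and is called the correction below.

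**Figure D1:**
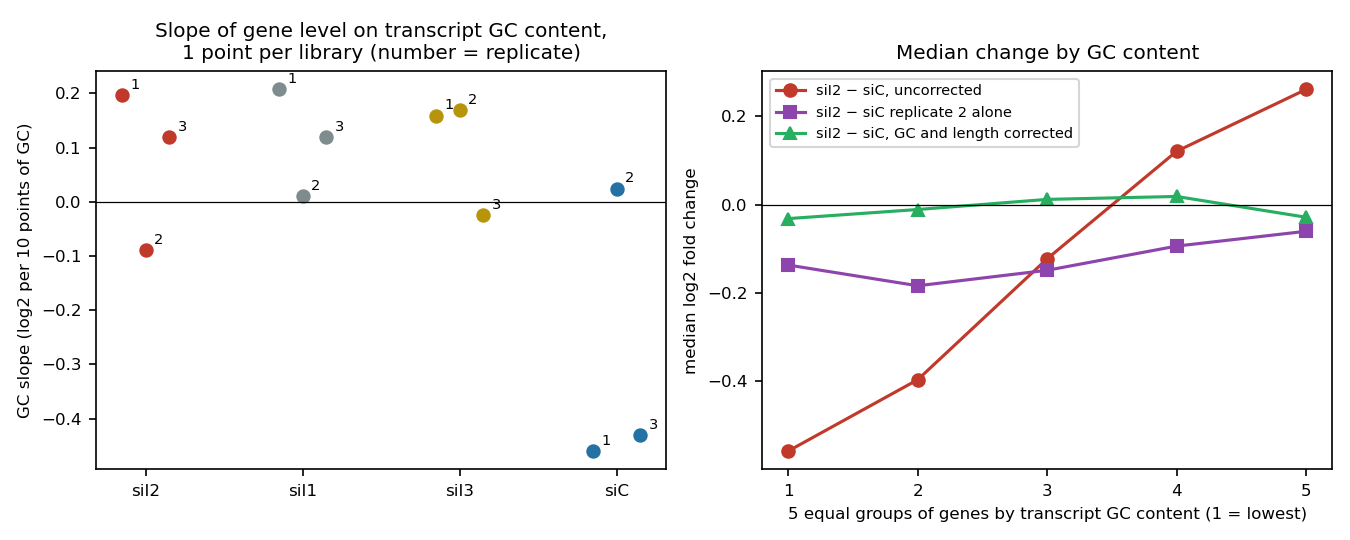
Left, slope of gene level on transcript GC content (log2 per 10 points of GC) for each of the 12 libraries, by group, with the replicate number beside the point. Right, median log2 fold change for 5 equal groups of genes by transcript GC content for siI2 against siC uncorrected, against siC replicate 2 alone, and with the correction; the uncorrected line runs from -0.56 to 0.26 and the corrected one lies between -0.03 and 0.02.

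The siRNA lowered its target. IGF2BP2 had 9.37, 11.8 and 19.2 FPM in siI2, against 74.8, 81.4 and 83.9 FPM in siC, so every siI2 library lay far below every siC library. The means were 13.4 ± 5.10 FPM in siI2 and 80.04 ± 4.72 FPM in siC (SD, n = 3 each), and the siI2 level was 16.8% of the control (log2 fold change -2.55 with SE 0.22, limma adjusted p = 3.45e-05). Over the other knockdowns it had 86, 97.1 and 84.1 FPM in siI1 and 94, 117 and 97.5 FPM in siI3. The lowering was of similar size whether controls or other siRNAs served for comparison, with the level in siI2 at 14% of the mean over siI1 and siI3 (-2.80, limma adjusted p = 9.7e-07). It was the only gene called when siC replicate 2 stood alone as the control (limma adjusted p = 0.0217, the spread of that lone library being assumed to match the other groups).

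The paralogs did not pass the test. IGF2BP1 had 58.6, 53.8 and 54.3 FPM in siI2 against 41.9, 49.1 and 40.7 FPM in siC (log2 fold change 0.34 with SE 0.18, limma adjusted p = 0.262), with no overlap between the groups. IGF2BP3 had 11.1, 18.2 and 15.5 FPM in siI2 against 21.7, 19.5 and 29.4 FPM in siC (log2 fold change -0.63 with SE 0.28, limma adjusted p = 0.2). All 3 siI2 values of IGF2BP3 lay below the controls, yet its log2 fold change was -0.11 after the correction, and its transcript has a GC content of 40.5%. A rise of one paralog or a fall of another was thus not shown.

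In all, 208 of 13782 genes tested were called at a limma adjusted p under 0.05, or 1.51% of the genes, with 79 up (0.573%) and 129 down (0.936%). After the correction 187 of 13570 genes were called (1.38%), 102 up (0.752%) and 85 down (0.626%), so the excess of decreases turned into an excess of increases. Other scalings of the uncorrected values also turned it, with 119 up and 79 down under RLE size factors and 128 up and 77 down under upper-quartile factors. The fits with and without the correction shared 110 calls (0.811% of genes), 57 up (0.420%) and 53 down (0.391%), which is 52.9% of the uncorrected calls and 58.8% of the corrected ones. Genes called up without the correction had a median GC content of 57.7% and those called down 42.3%, against 49.1% over all genes tested. With the correction these medians were 50.8% for genes called up and 50.0% for genes called down. The 3 siI2 and 3 siC libraries did not overlap for 2765 genes, 20.1% of those tested. On the recovered reads edgeR called 185 genes (1.34%), 115 up (0.834%) and 70 down (0.508%), of which 146 were also limma calls.

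Single libraries decided how many genes passed. Without siC replicate 1 or 3 the uncorrected count was 36 or 28, and without siI2 replicate 1 or 3 it was 37 or 63. It was 1572 without siC replicate 2 and 1414 without siI2 replicate 2, the library of each group whose GC slope differs most from its 2 partners. With the correction the counts were 71, 173 and 49 without siC replicate 1, 2 or 3, and 70, 357 and 114 without siI2 replicate 1, 2 or 3. The results below therefore lead with the 20 genes that were called in the fit with the correction, in the fit without it, and in all 12 fits that left out a library from either. Of these 20, 10 rose and 10 fell.

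**Figure D2:**
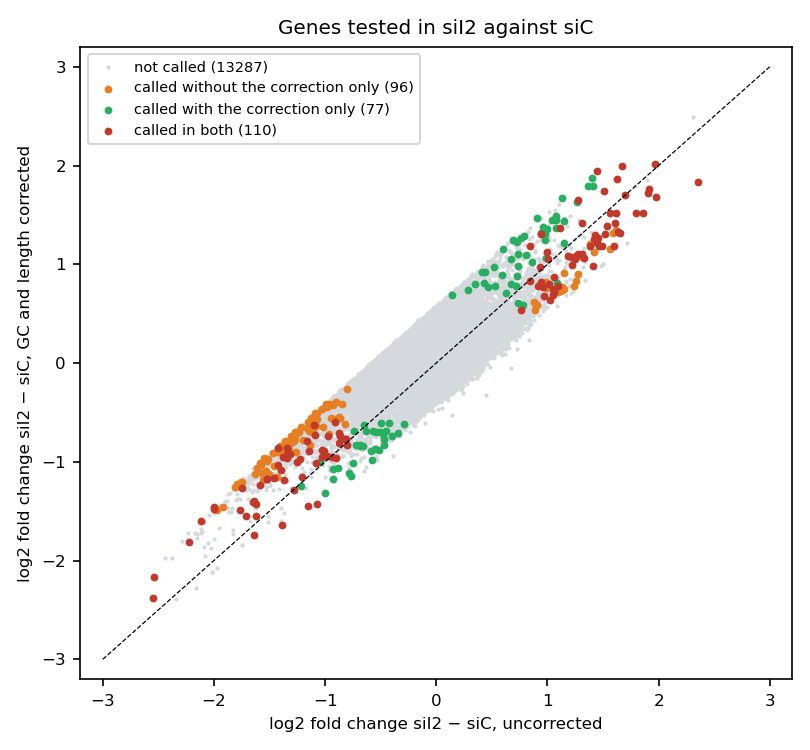
Log2 fold change of siI2 over siC without the correction (x axis) and with it (y axis), 1 point per gene, for the 13570 genes with a GC value. Of the called genes 110 are called in both fits, 96 only without the correction and 77 only with it; points off the dashed line of equality are genes whose change moved with the correction.

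The 10 genes that rose are given first. COL1A1, a chain of type I collagen, had 311, 237 and 527 FPM in siI2, against 74.6, 105 and 101 FPM in siC (log2 fold change 1.86 with SE 0.26, limma adjusted p = 0.00248). Replicate 3 of siI2 was far above its partners, and the lowest siI2 library still had more than 2 times the highest control. P3H2, an enzyme that hydroxylates prolines of collagen, had 26.6, 23.3 and 31 FPM in siI2, against 7.19, 4.42 and 7.04 FPM in siC (log2 fold change 1.97 with SE 0.26, limma adjusted p = 0.00248). Its change was larger still against siC replicate 2 alone, at 2.36. MRC2, a receptor that takes up collagen for degradation, averaged 51.7 ± 9.47 FPM in siI2 and 16.4 ± 2.99 FPM in siC (SD, n = 3 each; log2 fold change 1.6). THBS1, the matrix glycoprotein thrombospondin, had 324, 283 and 322 FPM in siI2, against 145, 141 and 141 FPM in siC (log2 fold change 1.11 with SE 0.16, limma adjusted p = 0.00398), with little spread among the controls.

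The other genes of this set that rose have various roles. QPRT, which makes a precursor of NAD from quinolinate, had 59.2, 36.4 and 42.9 FPM in siI2, against 11.8, 13.4 and 8.93 FPM in siC (log2 fold change 1.92 with SE 0.25, limma adjusted p = 0.00248). NMNAT2, which turns nicotinamide mononucleotide into NAD, had 41.3, 35.5 and 39 FPM in siI2, against 15.5, 14.1 and 15.2 FPM in siC (log2 fold change 1.31 with SE 0.21, limma adjusted p = 0.0055). Both NAD genes were thus separated from the controls by wide margins. QPRT and NMNAT2 also rose in siI1 against siC (log2 fold changes 1.84 and 0.72, limma adjusted p = 0.000435 and 0.0424). SYT11, a synaptotagmin of vesicle traffic, had 29.2, 33.1 and 27.9 FPM in siI2, against 7.54, 10.2 and 9.61 FPM in siC (log2 fold change 1.62 with SE 0.25, limma adjusted p = 0.00435), and the bHLH-PAS transcription factor ARNT2 had 19.8, 19.1 and 13.3 FPM in siI2, against 3.48, 5.72 and 6.77 FPM in siC (log2 fold change 1.56 with SE 0.24, limma adjusted p = 0.0055). The secreted guidance cue SLIT3 averaged 32.4 ± 3.40 FPM in siI2 and 13.5 ± 2.03 FPM in siC, and the inflammasome sensor NLRP1 averaged 67.5 ± 5.79 FPM in siI2 and 28.2 ± 6.56 FPM in siC (SD, n = 3 each; log2 fold changes 1.21 and 1.25). MRC2, SLIT3 and NLRP1, and below EFCAB14, CPNE3 and SERPINB2, fall outside the naming rule and were chosen after their values were seen.

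Of the 10 genes that fell, IGF2BP2 was followed by MMP3, a metalloproteinase that degrades matrix proteins. Its reads numbered 1, 6 and 0 in siI2, against 92, 49 and 43 in siC (log2 fold change -2.54 with SE 0.38, limma adjusted p = 0.00428). The siI2 libraries hold so few reads that the size of this change is uncertain, while every siI2 library lay below every control. SPTLC3, a subunit of serine palmitoyltransferase, the first enzyme of sphingolipid synthesis, had 1.70, 5.33 and 3.39 FPM in siI2, against 21.6, 13.7 and 17.6 FPM in siC (log2 fold change -2.12 with SE 0.33, limma adjusted p = 0.00463; -1.6 after the correction, adjusted p = 0.00668). TGFBR2, the type II receptor for TGF-beta, had 18.5, 14 and 13.3 FPM in siI2, against 55.9, 39 and 52.8 FPM in siC (log2 fold change -1.62 with SE 0.23, limma adjusted p = 0.00311). For each of these genes the highest siI2 library lay well under the lowest control. HOXB9, a homeobox transcription factor, had 13.6, 10.7 and 12.1 FPM in siI2, against 35.7, 41.1 and 42.5 FPM in siC (log2 fold change -1.64 with SE 0.20, limma adjusted p = 0.00214), with no overlap and little spread in either group.

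Other genes of the set also fell. DPYSL3, a collapsin response mediator protein that binds cytoskeletal filaments, had 85.8, 89.7 and 68.9 FPM in siI2, against 199.7, 213 and 182 FPM in siC (log2 fold change -1.28 with SE 0.17, limma adjusted p = 0.00248). Its 3 controls lay close together and all siI2 libraries lay below them. SERPINB2, an inhibitor of plasminogen activators, averaged 155 ± 22.6 FPM in siI2 and 395 ± 61.8 FPM in siC, and CPNE3, a calcium-dependent membrane-binding copine, averaged 25.9 ± 1.24 FPM in siI2 and 72.1 ± 12.9 FPM in siC (SD, n = 3 each). EFCAB14 averaged 12.4 ± 2.60 FPM in siI2 and 38.8 ± 4.44 FPM in siC. The log2 fold changes of SERPINB2, CPNE3 and EFCAB14 were -1.35, -1.43 and -1.59, and after the correction they were -0.86, -0.86 and -1.23.

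**Figure D3:**
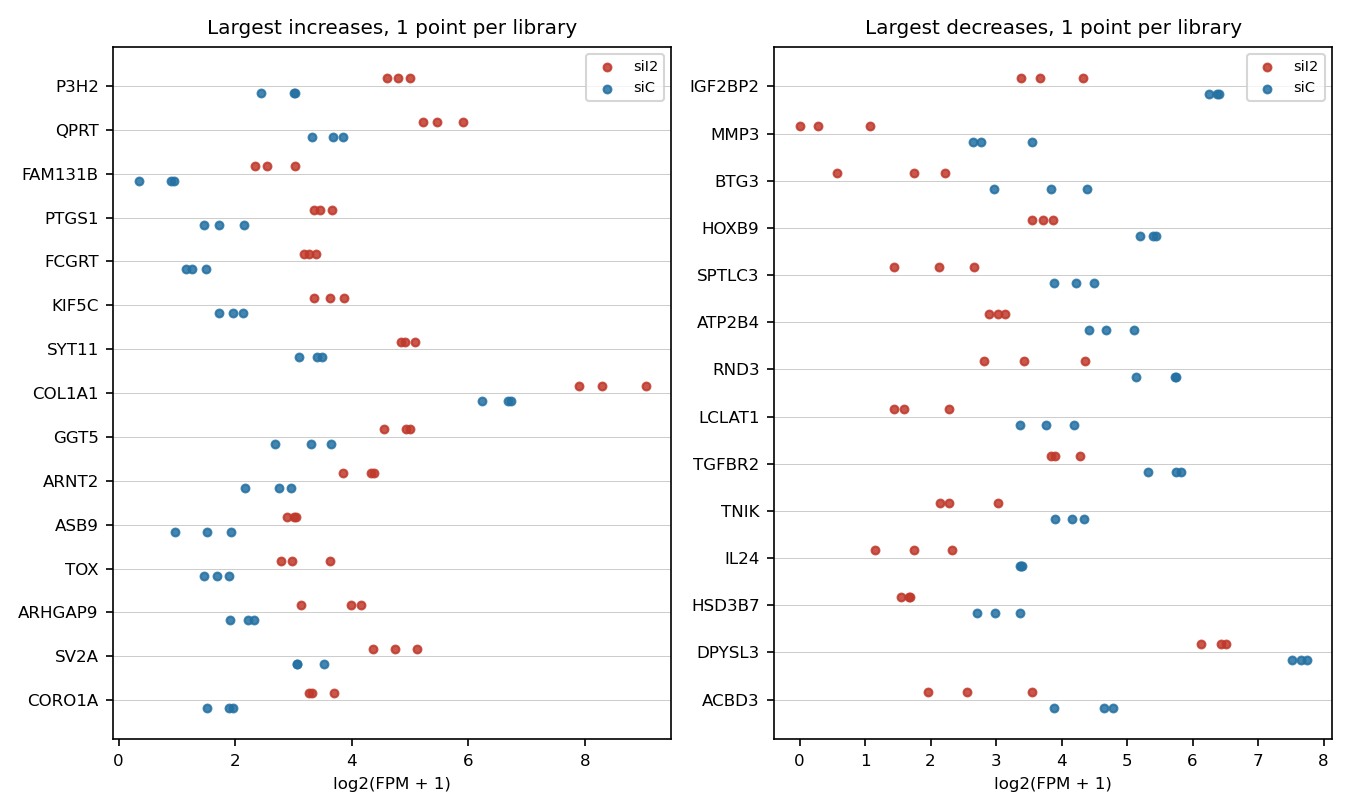
Level of each gene in each library as log2(FPM + 1), for the 15 largest increases (left) and 14 of the 15 largest decreases (right) called in siI2 against siC both with and without the correction, 1 point per library. No siI2 point overlaps the siC points of the same gene, as the choice of these genes required.

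The naming rule took the 15 largest increases and the 15 largest decreases from 54 and 50 coding or lncRNA genes called in both fits, with at least 5 FPM in the group with the higher mean and no overlap, so the separation of the groups in the plot of levels by library was fixed by that choice. Beside those given above, the increases include PTGS1, the cyclooxygenase COX-1, with 9.16, 9.92 and 11.6 FPM in siI2, against 2.32, 3.45 and 1.76 FPM in siC (log2 fold change 1.70 with SE 0.27, limma adjusted p = 0.00701). FCGRT, the heavy chain of the neonatal Fc receptor, had 8.09, 8.64 and 9.46 FPM in siI2, against 1.39, 1.83 and 1.22 FPM in siC (log2 fold change 1.98 with SE 0.33, limma adjusted p = 0.00711). Both calls were lost without siC replicate 3 (limma adjusted p = 0.0585 for PTGS1 and 0.0556 for FCGRT). The kinesin heavy chain KIF5C had 11.3, 9.19 and 13.6 FPM in siI2, against 2.32, 2.91 and 3.38 FPM in siC (log2 fold change 1.67 with SE 0.28, limma adjusted p = 0.00711), and its call was lost without siC replicate 1 (0.0531). The remaining increases were the synaptic vesicle protein SV2A (1.53), the leukotriene-processing enzyme GGT5 (1.62), the actin-binding coronin CORO1A (1.64), the GTPase-activating protein ARHGAP9 (1.61), the SOCS-box protein ASB9 (1.51), the HMG-box factor TOX (1.45) and FAM131B (1.91), each as a log2 fold change. The CORO1A call was lost without siC replicate 1 or siI2 replicate 1. The calls of SV2A, GGT5 and ARHGAP9 were lost without siC replicate 1 or 3 or siI2 replicate 1, and those of ASB9, TOX and FAM131B without any of these or siI2 replicate 3.

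Further decreases named by the rule lay outside the set of 20. ATP2B4, a plasma membrane calcium pump, had 6.39, 7.17 and 7.76 FPM in siI2, against 20.3, 24.6 and 33.3 FPM in siC (log2 fold change -1.71 with SE 0.28, limma adjusted p = 0.00705), and its call was lost without siC replicate 3 (0.0589). LCLAT1, an acyltransferase of phospholipid remodelling, had 1.70, 2.02 and 3.88 FPM in siI2, against 12.6, 9.27 and 17.3 FPM in siC (log2 fold change -2.0 with SE 0.29, limma adjusted p = 0.00398). Of the 6 fits that left out a library, LCLAT1 was called in all without the correction and in 4 with it. BTG3, an antiproliferative protein that recruits deadenylases, had 2.34, 3.67 and 0.485 FPM in siI2, against 13.3, 6.79 and 20.03 FPM in siC (log2 fold change -2.22 with SE 0.40, limma adjusted p = 0.0116). The BTG3 libraries were spread over a wide range in both groups, and its call was lost without siC replicate 1, siC replicate 3, siI2 replicate 1 or siI2 replicate 3 (limma adjusted p 0.0501 to 0.104). RND3, an atypical small GTPase that counters actomyosin contraction, had 9.79, 19.5 and 6.06 FPM in siI2, against 52.3, 34.2 and 52.7 FPM in siC (log2 fold change -2.0 with SE 0.40, limma adjusted p = 0.0218), and it stood at the threshold after the correction (adjusted p = 0.0494). The others were the kinase TNIK (-1.64), the cytokine IL24 (-1.64), the bile acid enzyme HSD3B7 (-1.39) and the Golgi protein ACBD3 (-1.75). RND3, IL24, HSD3B7 and ACBD3 were lost without any of the same 4 libraries as BTG3, and TNIK was lost without siC replicate 3 or siI2 replicate 1.

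Gene lists were read by their counts and medians, set against the medians of all genes tested, which were -0.09 without the correction and -0.01 with it. The 35 lists held 821 of the genes tested, and 20 lists had at least 1 call without the correction and 21 with it. Against a background of 1.51% of genes called, most lists with a call had 1 or 2.

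The list of collagen processing enzymes had the most calls in one direction, though lists were chosen with earlier results of these data known. Its members have a median transcript GC content of 57.0%. Of 24 enzymes and chaperones that process collagen, 4 rose, 0 fell and 20 did not pass, and the median was 0.35 without the correction and 0.24 with it. Besides P3H2 these were SERPINH1, the collagen chaperone HSP47, with 715, 589 and 577 FPM in siI2, against 256, 308 and 217 FPM in siC (log2 fold change 1.27 with SE 0.21, limma adjusted p = 0.00711), the crosslinking lysyl oxidase LOXL2 with 140.3, 135 and 186 FPM in siI2, against 54.1, 80.1 and 62.8 FPM in siC (log2 fold change 1.22 with SE 0.20, limma adjusted p = 0.00711), and the collagen galactosyltransferase COLGALT1 with 165, 157 and 139 FPM in siI2, against 86, 107 and 78.6 FPM in siC (log2 fold change 0.77 with SE 0.18, limma adjusted p = 0.0464). All 4 were also called with the correction, together with P3H1, the prolyl 3-hydroxylase leprecan (133 ± 32.5 FPM in siI2 and 79.1 ± 15 FPM in siC, SD, n = 3 each; adjusted p = 0.0258 with the correction and 0.0885 without). The calls were not equally firm. LOXL2 was lost without siC replicate 1 or 3, SERPINH1 without siC replicate 3 or siI2 replicate 1, and COLGALT1 without siC replicate 1 or 3 or siI2 replicate 1 or 3. The lysyl hydroxylases PLOD1, PLOD2 and PLOD3 and the prolyl 4-hydroxylases P4HA1 and P4HA2 did not pass in either fit. Against the mean of siI1 and siI3, 0 of the 24 were called without the correction (median 0.11), and SERPINH1 passed with it (limma adjusted p = 0.00504). In siI1 SERPINH1 had 810, 723 and 786 FPM, LOXL2 179, 177 and 171 FPM, and COLGALT1 191, 170 and 187 FPM. In siI3 they had 241, 222 and 150 FPM, 119, 123 and 86.1 FPM, and 117, 127 and 99.1 FPM.

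Of 17 collagen chains, 2 rose, 0 fell and 15 did not pass (median 0.51 without the correction and 0.22 with it). The chains of this list have a median transcript GC content of 60.3%. Besides COL1A1, the second was COL18A1, the source of endostatin, with 72, 48.5 and 66.9 FPM in siI2, against 26.9, 35.8 and 17.2 FPM in siC (log2 fold change 1.24 with SE 0.30, limma adjusted p = 0.0483), and it did not pass with the correction (adjusted p = 0.147) or without siC replicate 1 or 3 or siI2 replicate 1 or 3. The partner chain of COL1A1, COL1A2, averaged 4.58 ± 5.69 FPM in siI2 and 1.74 ± 0.557 FPM in siC and did not pass. The basement membrane chains COL4A1 and COL4A2 had log2 fold changes of 0.57 and 0.89 (limma adjusted p = 0.151 and 0.0608). None of the 17 chains was called against the mean of siI1 and siI3 without the correction (median 0.08).

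Metalloproteinases and their inhibitors moved in both directions, with 2 of 11 up and 1 down. MMP2, gelatinase A, had 151, 124 and 152 FPM in siI2, against 64.1, 76 and 63.2 FPM in siC (log2 fold change 1.06 with SE 0.18, limma adjusted p = 0.00724). TIMP3, an inhibitor of metalloproteinases bound to the matrix, had 409.9, 424 and 355 FPM in siI2, against 175, 205 and 215 FPM in siC (log2 fold change 1.0 with SE 0.17, limma adjusted p = 0.0102). In both genes all siI2 libraries lay above all controls, opposite to MMP3, and both calls held with the correction (adjusted p = 0.0119 and 0.000816). Without the correction the MMP2 call was lost without siC replicate 1 or 3 or siI2 replicate 1, and the TIMP3 call without siC replicate 1 or siI2 replicate 1. With the correction, MMP2 was called in 2 and TIMP3 in all of the 6 fits that left out a library. The collagenase MMP1 averaged 709 ± 120.4 FPM in siI2 and 1748 ± 363 FPM in siC and did not pass (limma adjusted p = 0.0963). The intermediate filament gene VIM, a mesenchymal marker, averaged 353 ± 183 FPM in siI2 and 914 ± 75.6 FPM in siC and did not pass either (limma adjusted p = 0.0563 without the correction and 0.0741 with it).

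In the TGF-beta pathway the receptor and other members did not share a direction. Of 29 ligands, receptors and SMADs, ENG rose and TGFBR2 fell. ENG, the co-receptor endoglin, had 81.3, 51.3 and 92.4 FPM in siI2, against 34.8, 45.6 and 35.7 FPM in siC (log2 fold change 0.90 with SE 0.22, limma adjusted p = 0.0485), and it did not pass with the correction (adjusted p = 0.109) or without siC replicate 1 or 3 or siI2 replicate 1 or 3. The ligand TGFB2 averaged 23.6 ± 2.91 FPM in siI2 and 15.2 ± 0.594 FPM in siC and was called up only with the correction (adjusted p = 0.00894, against 0.117 without). The type I receptor TGFBR1 averaged 1.20 ± 0.678 FPM in siI2 and 4.11 ± 1.38 FPM in siC and did not pass in either fit. Of 25 genes known as TGF-beta targets, 2 rose (THBS1 and COL1A1), 0 fell and 23 did not pass, and the median was 0.29 without the correction and 0.40 with it. With the correction 3 rose, the third being TPM1, an actin-binding tropomyosin, at 164 ± 47.7 FPM in siI2 and 105 ± 10.4 FPM in siC (SD, n = 3 each; corrected log2 fold change 0.89, limma adjusted p = 0.00671, against 0.14 without it). The targets SMAD7 and CTGF did not pass in either fit, with log2 fold changes of 0.25 and 0.07.

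Metabolic lists held a few large changes among many genes that did not pass. In NAD synthesis 2 of 10 genes rose (QPRT and NMNAT2) and none fell. The salvage enzyme NAMPT averaged 36.3 ± 14.3 FPM in siI2 and 43.4 ± 6.54 FPM in siC and did not pass (limma adjusted p = 0.595). In prostaglandin and leukotriene metabolism 2 of 9 rose, PTGS1 and GGT5. Both also rose in siI1 against siC (log2 fold changes 1.41 and 1.72, limma adjusted p = 0.00595 and 0.00208). In sphingolipid and phospholipid synthesis 2 of 28 fell, SPTLC3 and LCLAT1. The other subunits of serine palmitoyltransferase, SPTLC1 and SPTLC2, did not pass, with log2 fold changes of -0.39 and -0.39. In glycolysis and hypoxia 1 of 25 rose, the aldolase ALDOC, with 10.9, 6.25 and 8.24 FPM in siI2, against 2.09, 2.59 and 2.71 FPM in siC (log2 fold change 1.42 with SE 0.28, limma adjusted p = 0.0194), and this call was lost without siC replicate 1 or 3 or siI2 replicate 1 or 3.

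Among proliferation genes the median of a list differed between fits. The 36 genes of G2 and mitosis had a median transcript GC content of 42.4%. All tested genes with a GC content of 41.5% to 46.4% had a median log2 fold change of -0.40 without the correction and -0.01 with it. Against siC replicate 2 alone their median was -0.18. The 36 genes of G2 and mitosis had a median of -0.62 without the correction and -0.28 with it. Against siC replicate 2 alone the list had -0.22, close to the -0.18 of genes of similar GC content. A single member was called, the cytokinesis scaffold ANLN, with 23.4, 41.7 and 33.2 FPM in siI2, against 129, 41.5 and 152 FPM in siC (log2 fold change -1.52 with SE 0.35, limma adjusted p = 0.0441). Replicate 2 of siC lay beside the siI2 libraries and the other 2 controls lay above them, and ANLN did not pass with the correction (adjusted p = 0.0783) or without siC replicate 1 or 3 or siI2 replicate 1 or 3. The mitotic kinase PLK1 averaged 133 ± 7.82 FPM in siI2 and 134 ± 26.7 FPM in siC. None of the 34 genes of G1/S and DNA replication passed in either limma fit.

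Calls also differed between fits among antiproliferative genes, where 3 of 19 fell without the correction (BTG3, ARRDC3 and HBP1) and 1 with it (BTG3). The clock repressor NR1D2 fell without the correction (log2 fold change -1.81 with SE 0.42, limma adjusted p = 0.0464) but did not pass with it (adjusted p = 0.103), and its reads in siI2 were as few as 0. The calls of ARRDC3, HBP1 and NR1D2 were each lost without siC replicate 1 or 3 or siI2 replicate 1 or 3. Of 20 YAP and TEAD targets, 0 rose and 1 fell without the correction, and 1 rose (TGFB2) and 1 fell with it. ANKRD1 had 205, 332 and 189.6 FPM in siI2, against 745, 463 and 659.6 FPM in siC (log2 fold change -1.38 with SE 0.27, limma adjusted p = 0.0179) and fell in both fits, while CTGF and CYR61, the most used reporters of YAP, did not pass in either. The ANKRD1 call was lost without siC replicate 1 or 3 or siI2 replicate 1 or 3. CXCL1, a chemokine for neutrophils, was the 1 of 14 inflammatory cytokines that rose, with 68.4, 64.5 and 53.1 FPM in siI2, against 31.3, 37.2 and 33.3 FPM in siC (log2 fold change 0.85 with SE 0.20, limma adjusted p = 0.0482), and its call was lost without the same 4 libraries.

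Of 10 RNAs described as bound by IGF2BP2 in other cells, 6 had enough reads to be tested, of which 1 rose, 0 fell and 5 did not pass. LAMB2, a laminin chain, rose, with 121, 104 and 103 FPM in siI2, against 50.1, 74.2 and 54.3 FPM in siC (log2 fold change 0.88 with SE 0.20, limma adjusted p = 0.0405). It did not pass with the correction (adjusted p = 0.0612) or without siC replicate 1 or 3 or siI2 replicate 1 or 3 (limma adjusted p 0.0898 to 0.213). HMGA1, a chromatin protein, had 2149, 1402 and 1746 FPM in siI2 against 1529, 3067 and 2184 FPM in siC, overlapping groups that did not pass (limma adjusted p = 0.512). The respiratory chain subunits COX7B and NDUFS3 and the lncRNA DANCR did not pass either. COX7B averaged 71.4 ± 54.7 FPM in siI2 and 131 ± 22.6 FPM in siC, NDUFS3 averaged 42.9 ± 14.1 FPM in siI2 and 41 ± 5.26 FPM in siC, and DANCR averaged 83.2 ± 20.3 FPM in siI2 and 92.7 ± 14.9 FPM in siC (SD, n = 3 each). IGF2, which gave the family its name, had 0 to 2 reads in siI2 and 0 to 5 reads in siC, too few to compare.

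Respiratory chain genes, whose mRNAs IGF2BP2 is known to hold in other cells, had 0 calls among 36 subunits of complex I and 0 among 38 of complexes II to V, with and without the correction. Their medians were -0.06 and -0.36 without the correction and 0.09 and -0.10 with it. The same held for 82 cytosolic ribosomal proteins, 61 replication-dependent histones, 35 stress response genes (unfolded protein and integrated), 19 p53 targets, 15 m6A writers, erasers and readers, 32 RNA-binding partners, 15 abundant long noncoding RNAs and 11 structured small RNAs, none of which had a call in either fit. These lists, with the 34 genes of G1/S and DNA replication, hold 377 genes, of which 70 had an unadjusted limma p under 0.05 (4 of them up), against 3147 of the 13782 genes tested, while edgeR called 0, voom 0 and DESeq2 9. Of the insulin and IGF list, 0 of 23 passed without the correction, and with it IGFBP7, an IGF-binding protein, rose and EIF4EBP1, a repressor of cap-dependent translation, fell (adjusted p = 0.0324 and 0.0464). Interferon-stimulated genes, ERK feedback genes and cholesterol synthesis likewise had 0 limma calls without the correction and 1 each with it, IFI35 (down), the phosphatase DUSP5 (down) and the cholesterol enzyme DHCR7 (up). In these 4 lists without the correction, edgeR called 1, 0, 0 and 2 genes, voom 1, 0, 0 and 2, and DESeq2 3, 3, 2 and 5, and 5, 9, 9 and 6 had an unadjusted limma p under 0.05.

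**Figure D4:**
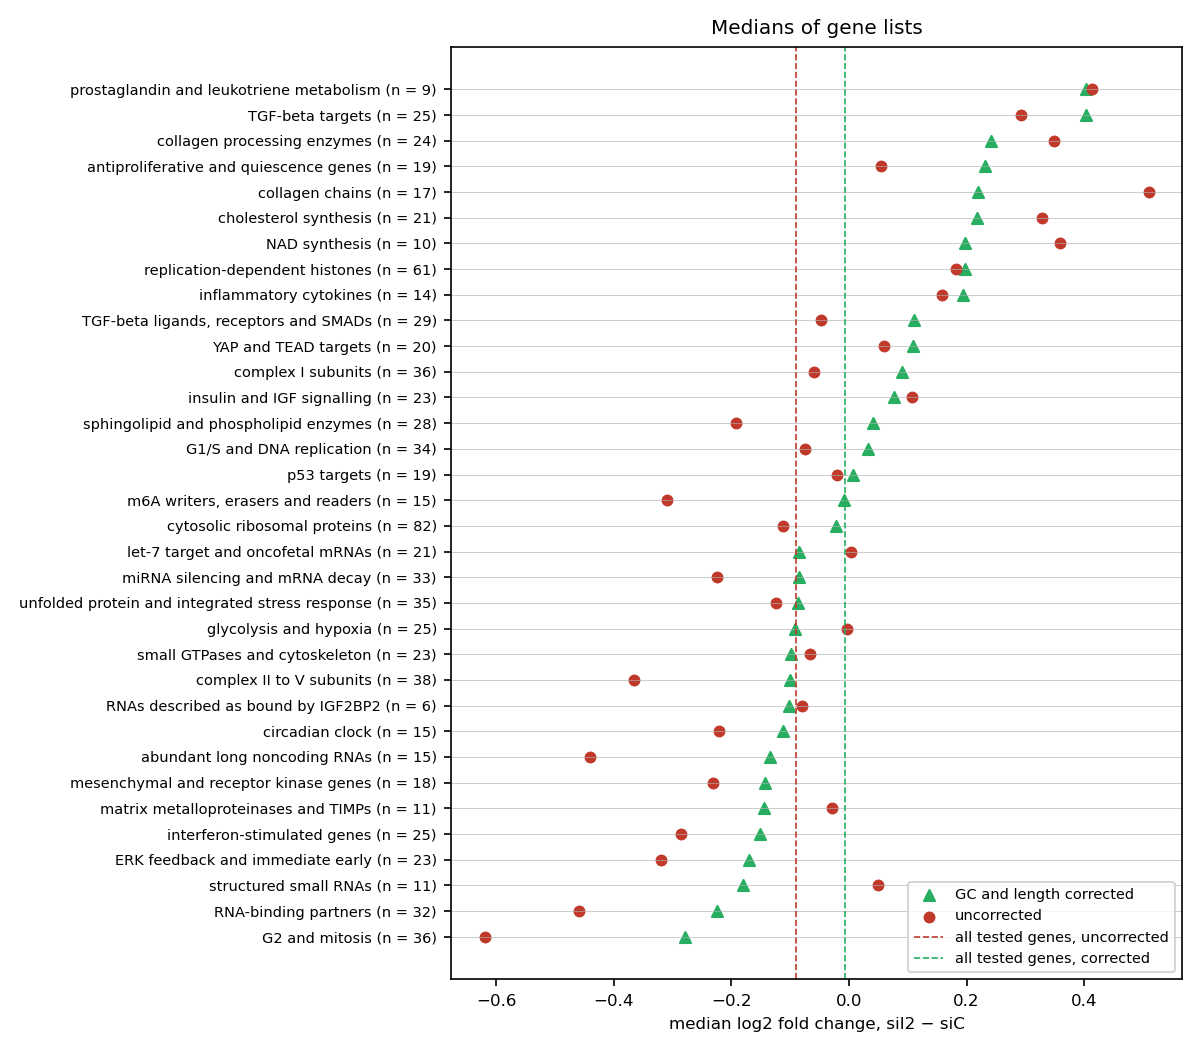
Median log2 fold change of siI2 over siC for the lists with at least 5 genes tested, without the correction (circles) and with it (triangles), with the number of genes tested beside the name. The dashed lines mark the medians of all genes tested, -0.09 and -0.01; G2 and mitosis has the lowest medians in both fits, -0.62 and -0.28.

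The let-7 targets were examined by name and by site. HMGA2 had 24.5, 20.8 and 54.1 FPM in siI2 against 28.2, 23.6 and 35.7 FPM in siC, with replicate 3 of siI2 above all others and the rest overlapping (log2 fold change 0.07 with SE 0.31, limma adjusted p = 0.916). MYC had 349, 329 and 339.7 FPM in siI2 against 251, 372 and 257 FPM in siC and also did not pass (limma adjusted p = 0.542). LIN28B had 3 to 4 reads in siI2 and 3 to 9 reads in siC, too few to test. Of 21 let-7 target and oncofetal mRNAs, 1 rose (THBS1) and 1 fell (IGF2BP2 itself, the siRNA target), and 19 did not pass.

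Across the 11293 genes with a principal 3′ UTR, 1109 (9.82%) held the let-7 7mer printed above. Their median log2 fold change was -0.16, against -0.10 for the 10184 genes without it, and with the correction the medians were -0.01 and -0.02. The same description was made for 4 other miRNA families, whose mature sequences follow with the seed in capitals (RefSeq, GRCh38.p14). They are shown because their seeds differ in base composition.
hsa-miR-29a-3p: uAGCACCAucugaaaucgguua
hsa-miR-17-5p: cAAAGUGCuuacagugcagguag
hsa-miR-21-5p: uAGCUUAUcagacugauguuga
hsa-miR-200b-3p: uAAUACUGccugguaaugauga
The 7mer that pairs with the seed has 4 G or C bases for let-7 and miR-29, 3 for miR-17 and 2 for miR-21 and miR-200b. Without the correction, genes with a site minus genes without one differed in the median by -0.06 for let-7, 0.00 for miR-29, -0.15 for miR-17, -0.24 for miR-21 and -0.24 for miR-200b. With the correction the same differences were 0.00, 0.05, 0.03, 0.01 and 0.01. Without the correction the differences thus followed the number of G and C bases in the site, and with it they did not. They are descriptions, and no test was made of them.

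Fold changes of siI2 against the mean of the siI1 and siI3 libraries use no control library. The controls still entered the spread behind the p-values, as all 12 libraries were in the fit. These fold changes had almost no relation to GC content across genes (Spearman correlation -0.09 over 13570 genes, against 0.60 for siI2 against siC). Genes are not independent replicates. The comparison asks which genes stood apart in siI2 from cells given another siRNA. It called 113 of 13782 genes (0.820%), 45 up (0.327%) and 68 down (0.493%), and 245 with the correction (1.81%), 116 up (0.855%) and 129 down (0.951%). All 110 of the 113 with a GC value were also called with the correction. The count ranged from 24 without siI2 replicate 1 to 148 without siI3 replicate 3. It was 40, 52 and 44 without siI1 replicate 1, 2 or 3, 34 and 64 without siI2 replicate 2 or 3, and 56 and 52 without siI3 replicate 1 or 2. IGF2BP1, the target of siI1, was among the genes higher in siI2, with 58.6, 53.8 and 54.3 FPM in siI2 against 10.7, 11.7 and 10.8 FPM in siI1 and 39, 35.3 and 42.5 FPM in siI3. A gene can pass in this comparison through siI1 or siI3 as well as through siI2. With only the 9 knockdown libraries in the fit, the comparison called 78 of 13782 genes, 35 up and 43 down.

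Of the genes named in this comparison, some stood apart in siI2 from all 9 other libraries. SYT11 had 29.2, 33.1 and 27.9 FPM in siI2 against 7.92, 11 and 5.81 FPM in siI1, 9.68, 8.51 and 11.5 FPM in siI3 and 7.54, 10.2 and 9.61 FPM in siC (1.65, SE 0.21, limma adjusted p = 0.00131 against siI1 and siI3). KIF5C had 11.3, 9.19 and 13.6 FPM in siI2 against 3.26, 2.24 and 3.42 FPM in siI1, 2.39, 3.81 and 3.37 FPM in siI3 and 2.32, 2.91 and 3.38 FPM in siC (1.6, SE 0.24, 0.00389). ARHGAP9 and FAM131B showed the same separation (1.75 and 1.63, limma adjusted p = 0.00593 and 0.0346). On the lower side, LCLAT1 had 1.70, 2.02 and 3.88 FPM in siI2 against 10.7, 8.96 and 8.21 FPM in siI1, 9.12, 13.5 and 10.3 FPM in siI3 and 12.6, 9.27 and 17.3 FPM in siC (-1.69, SE 0.25, limma adjusted p = 0.00395). The transcription factor KLF4 (-1.37, 0.0312) and LINC02454 (-1.62, 0.0174) were also lower in siI2 than in any of the 6 other knockdown libraries and any control. Against siC, KLF4 did not pass in either fit (limma adjusted p = 0.121 without the correction and 0.101 with it). LINC02454 passed only without it (limma adjusted p = 0.0483, against 0.112 with it). This call was lost without siC replicate 1 or 3 or siI2 replicate 1 or 3.

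Genes already described as fallen against the controls differed from the other knockdowns too. TGFBR2 had 35.6, 48.5 and 35.2 FPM in siI1 and 45.7, 28.8 and 33.7 FPM in siI3, all above its siI2 values (siI2 against both -1.25, limma adjusted p = 0.00657). HOXB9 had 28.9, 31 and 22.2 FPM in siI1 and 41.4, 41.8 and 34.4 FPM in siI3, again all higher (-1.36, 0.00107). MMP3 stood lower in siI2 than in siI1, with 2.17, 2.88 and 1.71 FPM, and far lower than in siI3, with 16.1, 10.9 and 28.2 FPM (-2.48, 0.00131).

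Other genes of this comparison did not pass in siI2 against the controls without the correction. Fibronectin, FN1, had 155, 162 and 174 FPM in siI2 against 55.6, 50.7 and 49.1 FPM in siI1, 61.9, 44.7 and 71.1 FPM in siI3 and 139, 129 and 133 FPM in siC (1.56 against siI1 and siI3, limma adjusted p = 0.000137). Against siC it did not pass in siI2 (0.29, limma adjusted p = 0.355) and fell in siI1 and siI3 (-1.35 and -1.19). With the correction FN1 was just short of the threshold in siI2 against siC (0.71, limma adjusted p = 0.0519). The stathmin STMN3 had 51.5, 45.8 and 58.2 FPM in siI2 against 163, 114 and 168 FPM in siI1, 325, 289 and 143 FPM in siI3 and 70.8, 89.2 and 75.1 FPM in siC (-1.84, 0.000908). The SNARE gene VAMP4 had 0.639, 1.10 and 0.242 FPM in siI2 against 13, 7.75 and 8.33 FPM in siI3, and the immediate early gene FOS had 0.426, 0.735 and 0.970 FPM in siI2 against 8.70, 10.7 and 6.38 FPM in siI3, so both were high in siI3. STMN3 passed in siI2 against siC with the correction (-0.89, limma adjusted p = 0.0276). The thrombin receptor gene F2RL2 and the noncoding gene AC051619.8 were higher in siI2 (1.64 and 1.80, 0.0417 and 0.0144), and neither passed in siI1 or siI3 against siC. In siI2 against siC with the correction F2RL2 passed (1.87, limma adjusted p = 0.0371) and AC051619.8 did not (limma adjusted p = 0.108).

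TIMP3, THBS1 and MMP2 had different values in each knockdown. TIMP3 had 409.9, 424 and 355 FPM in siI2 against 213, 227 and 198 FPM in siI1 and 97.2, 94.9 and 76.4 FPM in siI3, beside the 175, 205 and 215 FPM of siC. THBS1 had 324, 283 and 322 FPM in siI2, 352, 309 and 351 FPM in siI1 and 58.2, 56.1 and 47.7 FPM in siI3, and MMP2 had 151, 124 and 152 FPM in siI2, 279.7, 274 and 300.2 FPM in siI1 and 13, 15.1 and 18.1 FPM in siI3. All 3 genes were thus lowest in siI3. MMP2 was lower in siI2 than in siI1, and its mean of 142 FPM in siI2 lay below the 150.1 FPM of the 6 siI1 and siI3 libraries together. On the log2(FPM + 1) scale of the test, where the low siI3 values weigh more, siI2 was above the mean of the other knockdowns for all 3 genes (1.51, 1.19 and 1.06, limma adjusted p = 0.000137, 0.000697 and 0.00287).

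For several of the largest changes against the controls, another knockdown had values as high or as low. COL1A1 had 798, 692 and 761 FPM in siI1 and 147, 161 and 109 FPM in siI3, so its siI2 values lay between them (0.08 against both, limma adjusted p = 0.935). P3H2 had 30.9, 42.1 and 22.2 FPM in siI1 and 6.88, 8.77 and 8.33 FPM in siI3, and ARNT2 had 31.7, 34.2 and 33.5 FPM in siI1 and 9.12, 8.003 and 8.86 FPM in siI3. QPRT had 46.4, 38.7 and 43.8 FPM in siI1 and 14.6, 18.8 and 10.1 FPM in siI3. Against both, QPRT passed only with the correction (limma adjusted p = 0.0942 without it and 0.00649 with it). GGT5 had 26.9, 37.3 and 25.5 FPM in siI1 and 5.19, 3.18 and 6.38 FPM in siI3. PTGS1 had 8.39, 6.56 and 9.74 FPM in siI1 and 0.842, 0.762 and 0.886 FPM in siI3, and it passed against both (limma adjusted p = 0.00895). SV2A had 19.3, 21.7 and 22.6 FPM in siI1, and ASB9 had 5.90, 7.04 and 6.50 FPM there. In SPTLC3 the low values were shared with siI3 instead, at 2.25, 2.29 and 3.72 FPM, against 15.2, 16.8 and 10.1 FPM in siI1. RND3 was low in all 3 knockdowns, with 6.99, 16.2 and 10.3 FPM in siI1 and 10.7, 19.1 and 31.5 FPM in siI3. ACBD3 had 7.45, 12.8 and 9.23 FPM in siI1 and 6.31, 5.21 and 4.96 FPM in siI3. IL24 had 2.17, 2.72 and 3.25 FPM in siI1 and 6.59, 5.46 and 9.04 FPM in siI3. The knockdowns share the siC libraries, so values that resemble each other against siC are not independent.

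**Figure D5:**
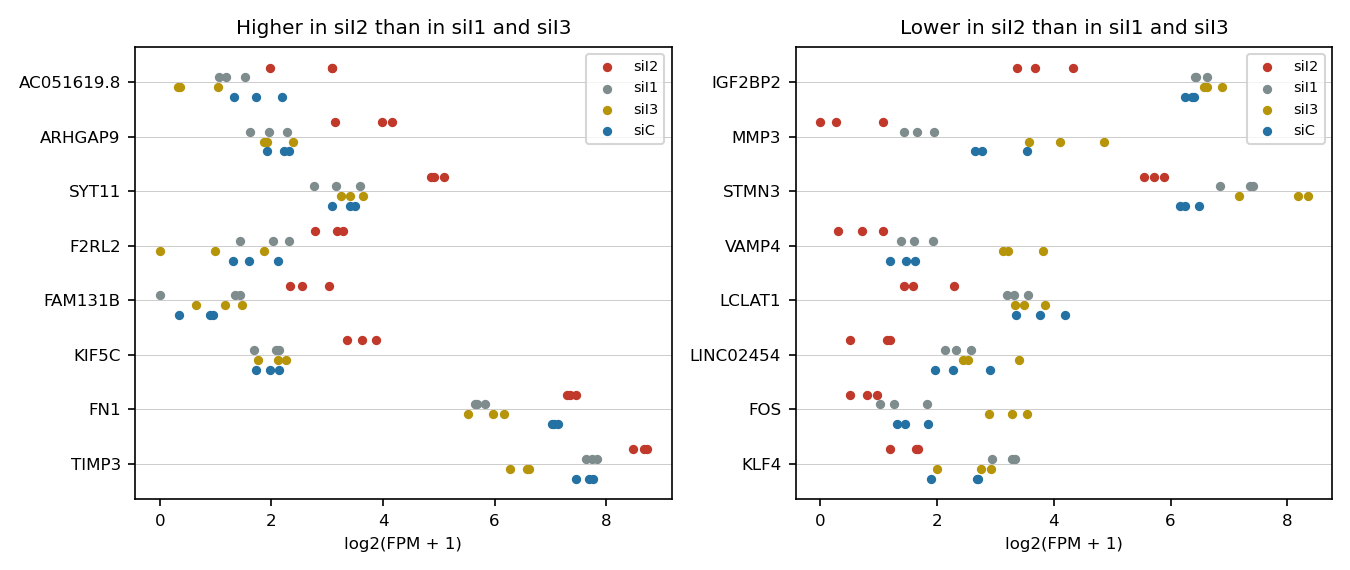
Level as log2(FPM + 1) in each of the 12 libraries, for the genes with the largest differences of siI2 from the mean of siI1 and siI3, higher on the left and lower on the right, 1 point per library and color by group. In FN1 the siI2 and siC points lie together above siI1 and siI3, and in SYT11 and KIF5C the siI2 points stand apart from all 9 others.

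Calls that the correction removed were examined by the naming rule as well. It removed 96 of the uncorrected calls, and 2 more had no GC value. The 6 examples that rose without it were PTK7, GDPD5, RASAL3, NAT8L, PXDN and PDGFRB, and the 6 that fell were LSM14A, RASSF8, AHR, PDE1C, LIN7C and CBFB. GDPD5, a phosphodiesterase, had 26.6, 27.4 and 26.9 FPM in siI2, against 13.1, 15 and 14.1 FPM in siC, tight and separate groups (log2 fold change 0.90 with SE 0.18, limma adjusted p = 0.0245), and its corrected log2 fold change was 0.58 (adjusted p = 0.111). The aryl hydrocarbon receptor AHR had 4.26, 4.04 and 4.61 FPM in siI2, against 15.3, 11 and 13 FPM in siC (log2 fold change -1.40 with SE 0.26, limma adjusted p = 0.0142), and its corrected change was -0.84 (adjusted p = 0.108). GDPD5 transcripts have a GC content of 60.7% and those of AHR 38.2%. LSM14A, a component of P-bodies, fell by 1.14 on the log2 scale without the correction and by 0.60 with it. Whether such genes changed with the knockdown or with the composition of the control libraries cannot be told apart with these data.

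The authors' deposited table gives a fold change and an FDR of its own, with knockdown over control as its direction. Of 57773 features in the authors' deposited table, 104 (0.180%) had an FDR under 0.05 for siI2, 61 up (0.106%) and 43 down (0.0744%). Of these, 103 were among the genes tested here and 98 were also called by limma, which is 95.1% of the 103 and 47.1% of the 208 limma calls. In the authors' deposited table IGF2BP2 had a log2 fold change of -2.58 and an FDR of 7.11e-16.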

How the data were processed

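The submitters' processing notes list cutadapt 1.6, TopHat2 2.0.13, featureCounts 1.4.6 and edgeR 3.12 as tools and hg19 as the build, while the annotation release and the strand settings were not stated in any source used here. Expression is deposited, per the file headers, as FPM, a signal that the authors normalized. Its sum over genes differs between libraries, so the scaling was not to the gene total alone. The same table holds a log2 fold change and an FDR (an adjusted p-value) for each knockdown, quoted here only as the authors'. The 92 ERCC spike-ins were left out of all tests. All FPM values (100% within 0.01) were whole multiples of the value of 1 read in their library, so reads could be recovered. GENCODE release 29 gave the gene names, for 52338 features through the identifier and for 1885 through the symbol. No 2 replicates were as close as repeat runs of a library would be (chi-square over its degrees of freedom 18.6 to 30.9 in siI2 and 25.8 to 79.2 in siC).

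FPM are not counts, so genes were tested on log2(FPM + 1) with limma 3.58.1 and its trended prior variance. This scale understates changes of low genes. All 12 libraries entered the fit (R 4.3.3). The filter was filterByExpr on the recovered reads (minimum count 10), and p-values were adjusted by Benjamini-Hochberg over all genes tested. The correction took from each library a loess surface (span 0.5) over transcript GC content and length, possible for 98.5% of genes. The limma script was tested on simulated data. Read floors cover counting error only.

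Named genes were the IGF2BPs, HMGA1, HMGA2, IGF2, MYC and LIN28B; the 15 largest changes per direction called in both fits with 5 FPM or more in the higher group and no overlap; the 8 largest per direction against siI1 and siI3; up to 4 called members per list; and up to 6 per direction of the calls lost with the correction. A gene that this rule names is not reported here. Genes, lists and rules were chosen with earlier results of these data known. The alternatives were edgeR 4.0.16, DESeq2 1.42.0 and voom on recovered reads, other scalings, filters and pseudocounts, a replicate block, other choices of control, and leaving out each library. No list was tested as a set.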

Additional observations from a re-analysis of the deposited data

How the results depend on the processing

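IGF2BP2 stayed called under all 23 alternatives (log2 fold change -2.82 to -2.31). For siI2 against siC the count of 208 kept within 1.5 times under pseudocounts 0.25 and 4 (183 and 245), a mean of at least 5 FPM (198), RLE and upper-quartile factors, edgeR (185), voom (150) and both GC corrections (187 and 212). It was 77 with no filter on low values, 716 with DESeq2, 37 with only the 6 libraries compared, 359 with protein-coding genes only and 1 with siC replicate 2 as the only control. Leaving out 1 library gave 28 to 1572 calls, and 49 to 357 with the correction (leaving libraries out of corrected values was chosen after seeing the data). Same-numbered siI2 and siC libraries did not deviate together (r = -0.21, -0.46 and -0.01). With 3 libraries per group this cannot tell whether same-numbered libraries were prepared together, and the labels name no pairing. With the number as a block 95 genes were called, and 117 with the block and the correction. Of the other 71 named genes, 20 fell short of the threshold with the correction, 37 with only the 6 libraries, 59 with siC replicate 2 alone, and 39, 42, 38 and 29 without siC replicate 1, siC replicate 3, siI2 replicate 1 and siI2 replicate 3, against 0 with DESeq2. For siI2 against siI1 and siI3 the count of 113 was 41 with no filter, 263 with DESeq2, 53 with the replicate block, 245 and 246 with the GC corrections with and without length, and 24 to 148 with 1 library left out; with the correction 1 library left out gave 98 to 437. No called gene among these turned its direction under these alternatives. The cause of these moves was not tested. The siI2 libraries held fewer reads than the siC libraries, so the size of a change is uncertain for genes with few reads there, such as MMP3, NR1D2 and LIN28B.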

Other observations

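The ERCC spike-in RNAs, which entered no comparison, took 1.11% ± 0.345 of reads in siI2 and 2.21% ± 0.482 in siC (SD, n = 3 each), with no overlap between the groups. An exact two-sided permutation test gave p = 0.1, the smallest that 3 against 3 allow. The spliceosomal U1 RNA took 4.39% ± 3.06 of reads in siI2 and 10.6% ± 4.23 in siC, with overlapping ranges (exact permutation p = 0.2). Shares of reads within a library are not levels per cell.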
